A study of Mus musculus with 36 samples.

Results

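The libraries described here are the 12 of 36 in the series that were made 30 min after induction of long-term potentiation (LTP), and the comparison is between 2 responses to LTP: that of ribosome-associated RNA of excitatory neurons (TRAP) and that of total RNA of all cells of the same slices. All 12 were taken, by their labelled time, population and treatment. There were 3 libraries each of TRAP basal, TRAP LTP, total RNA basal and total RNA LTP. All slices came from C57BL/6 mice heterozygous for both the RiboTag allele and a Camk2a-cre transgene, in which cells that express Cre carry an HA tag on ribosomal protein L22. The Camk2a promoter drives Cre in forebrain excitatory neurons. Acute hippocampal mini-slices that hold CA3 and CA1 were treated with forskolin and then with raised calcium and potassium without magnesium (chemical LTP), or with vehicle (basal). Slices of 4 mice were pooled for each replicate and shared between basal and LTP, so that a replicate number marks the same mice. A TRAP and a total RNA library were made from each of 6 homogenates, part of which was kept for total RNA while the rest went to precipitation with anti-HA beads.

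Late LTP requires new transcription, and within minutes of strong activity neurons switch on immediate early genes such as Fos, Npas4 and Arc. The RNA of a tissue lysate counts every transcript, in the nucleus or the cytoplasm and in any cell, whereas RNA that comes down with tagged ribosomes is weighted towards mRNA being translated in the tagged cells. A transcript can therefore respond in one population and not in the other, and the difference between the 2 log2 fold changes (LTP over basal in TRAP, minus LTP over basal in total RNA) measures that. Below, a transcript is called higher if this difference is above 0 and lower if it is below 0. The difference was tested within homogenates, and the study's thresholds were used, 0.1 for the false discovery rate and 0.4 for the absolute log2 value.

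The 12 libraries held 21265627 to 52459224 reads on genes. Without Rn45s, the precursor of ribosomal RNA, which took 0.0902 to 14.1% and was left out, TRAP basal libraries had 41445942 to 52375072 reads, TRAP LTP libraries 21318990 to 34848318, and total RNA libraries 18267737 to 36133340. Pearson's r between replicates was 0.994 to 0.998 over genes, which do not count as replicates. The summed level of 10 excitatory neuron markers was 12900 to 13400 CPM (counts scaled to a common library size) in TRAP basal and 12800 to 13000 in TRAP LTP libraries, against 7630 to 8450 in total RNA. The 12 astrocyte markers summed to 458 to 589 CPM in TRAP basal, 520 to 660 in TRAP LTP and 6360 to 6820 in total RNA, and the 12 interneuron markers to 750 to 937, 781 to 965 and 1210 to 1350. Every marker of the 9 cell type lists had reads in at least 1 TRAP library. The interneuron sum was carried by Cck, at 716 to 900 CPM in TRAP and 248 to 297 in total RNA, and the other 11 interneuron markers summed to 74.25 to 91.34 in TRAP basal, 79.07 to 105.5 in TRAP LTP and 904.9 to 994.5 in total RNA.

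At 30 min, 68 of 15387 transcripts responded differently in the 2 populations, 41 higher in TRAP (0.266% of those tested) and 27 lower (0.175%). The higher ones held the activity gene Fos, long transcripts of the cytoskeleton and the Golgi such as Map2, Sptb and Golgb1, and genes of other cells that are scarce in TRAP, such as Gad2. The lower ones held ribosomal protein and proteasome genes such as Rps10 and Psma5. In all 68 the 3 TRAP/total ratios of the LTP homogenates lay outside the range of the 3 basal ones. Over all transcripts tested, the LTP ratios lay above the basal ones in 10.2% and below in 11.2%. The difference was above 0 for 7411 of the 15387 and below 0 for 7973. Its unadjusted p was under 0.05 for 1207 above 0 and 1255 below 0, a background for the counts of the lists below. In bulk samples such as these, a change in the number of cells of a type and a change in RNA per cell cannot be told apart.

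Most called transcripts had fold changes of opposite sign in the 2 populations and were called in neither. Of the 41 higher ones, 26 were called in neither population, 13 rose in TRAP alone and 2 (Btg2 and Gadd45g) rose in both. Of the 27 lower ones, 26 were called in neither and 1, Rasgef1b, fell in TRAP. With the replicate number as a block in each response, 14 of the 41 were called in neither population, 22 rose in TRAP alone, 3 rose in both and 2 fell in total RNA alone, and of the 27, 17 were called in neither, 7 fell in TRAP and 3 rose in total RNA. By sign, 25 of the 41 were above 0 in TRAP and below 0 in total RNA, and 25 of the 27 the other way round. Their median log2 fold changes were 0.45 in TRAP and -0.03 in total RNA for the 41, and -0.28 and 0.20 for the 27. These transcripts were chosen by the difference between the 2 fold changes, which favours opposite signs. The share with opposite signs over all tested was not counted.

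**Figure D1:**
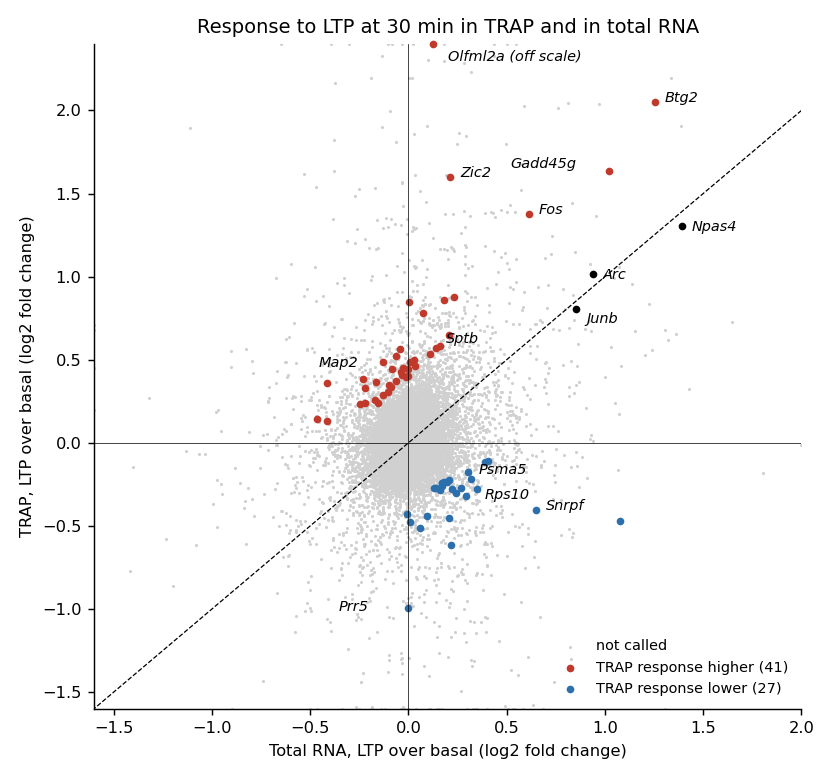
Log2 fold change of LTP over basal in TRAP (vertical axis) against that in total RNA (horizontal axis) for 15387 transcripts at 30 min, with values beyond the axes drawn at their edge. The 41 transcripts called higher (red) lie above the dashed line of equal response and the 27 called lower (blue) below it, while Npas4, Arc and Junb (black) lie close to it.

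Within each population, the TRAP libraries called 43 transcripts higher (0.279% of those tested) and 7 lower (0.0455%) in LTP. The total RNA libraries called 18 higher (0.117%) and 1 lower (0.0065%). The median absolute log2 fold change over all transcripts was 0.11 in TRAP and 0.07 in total RNA. Across the 15387 transcripts the 2 responses had a Pearson's r and a Spearman's rho of 0.127, a description over genes measured in TRAP and total RNA of the same homogenates. With the replicate number added as a block for the mice that basal and LTP slices had in common, 231 transcripts were called in TRAP and 66 in total RNA, and the difference between the populations was called for 111 (63 higher and 48 lower, 65 of the 68 among them). Without the homogenate or any other block the count was 10.

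Single libraries moved these counts. Leaving out TRAP basal replicate 2 or total RNA basal replicate 2 left 17 calls of a difference each, TRAP LTP replicate 3 41, and total RNA LTP replicate 3 35. There were 146 without TRAP LTP replicate 1 and 145 without total RNA LTP replicate 1, and 20 without the 4 libraries of replicate 2. In TRAP alone, 23, 30 and 81 transcripts were called without basal replicates 1, 2 and 3 and 27 without LTP replicate 1. In total RNA, 37 were called without basal replicate 3.

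Fos, a subunit of the AP-1 transcription factor (chr12:85473890-85477273, mm10), was at 168, 178 and 186 CPM in the TRAP basal and at 428, 415 and 535 in the TRAP LTP libraries of replicates 1, 2 and 3. In total RNA it was at 404, 525 and 511 CPM in basal and at 637, 774 and 791 in LTP libraries. All LTP libraries were above all basal libraries in both populations, and the rise was 2.59-fold in TRAP and 1.53-fold in total RNA. The difference was 0.75 ± 0.094 (log2 ± SE, n = 3 homogenates per treatment, adjusted p = 0.00526), and 0.70, 0.66 and 0.90 in the single replicates. In total RNA itself the fold change of Fos did not pass without the replicate block (log2 0.61, adjusted p = 0.309) and passed with it (log2 0.62, adjusted p = 2.23e-11).

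Btg2, an antiproliferative protein that recruits mRNA deadenylases, was at 50.8, 48.3 and 49.3 CPM in TRAP basal and at 200.9, 156 and 256 in TRAP LTP libraries. In total RNA it was at 78.0, 90.4 and 80.7 CPM in basal and 181, 199 and 214 in LTP libraries. It therefore rose 4.14-fold in TRAP and 2.38-fold in total RNA, and the difference of 0.77 ± 0.17 passed by little (adjusted p = 0.0912). Gadd45g, a growth arrest and DNA damage inducible protein, went from 36.3 to 41.7 CPM in TRAP basal to 94.9 to 139.5 in TRAP LTP, and from 39.1 to 52.4 to 88.3 to 91.2 in total RNA (difference 0.59 ± 0.13, adjusted p = 0.0570). The LTP libraries were above the basal ones in both populations for both genes. Without TRAP LTP replicate 2 the differences were 0.95 for Btg2 (adjusted p = 1.13e-06) and 0.74 for Gadd45g (adjusted p = 0.000229).

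Other activity genes rose in both populations, and the difference between their responses did not pass. Npas4, an activity-dependent transcription factor, was at 80.6, 68.8 and 68.5 CPM in TRAP basal and 178, 169 and 191 in TRAP LTP libraries, and at 52.4, 47.7 and 42.8 against 125, 125 and 126 in total RNA. Its fold change was 2.47 in TRAP and 2.62 in total RNA, and the difference was -0.09 ± 0.066 (adjusted p = 0.530). Arc, whose protein controls the traffic of AMPA receptors, rose 2.02-fold and 1.92-fold (0.07 ± 0.060, adjusted p = 0.602), and the AP-1 subunit Junb 1.74-fold and 1.81-fold (-0.05 ± 0.063, adjusted p = 0.751). All 3 values lay within 0.1 of 0 on the log2 scale.

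The lists of activity genes held few calls. Of 24 immediate early transcription factors, 7 rose in TRAP and 6 in total RNA, 1 (Fos) was called higher in the difference and none lower, with a median difference of 0.04 against -0.01 over all transcripts tested. Without TRAP LTP replicate 2, 3 were called higher, Fos (0.86), Ier2 (0.50, adjusted p = 0.0540) and the stress-induced factor Atf3 (0.45, adjusted p = 0.0194). The zinc finger factor Egr4, on the other side, was at a log2 fold change of 0.59 in TRAP and 0.86 in total RNA (difference -0.28 ± 0.087, adjusted p = 0.118), and Ier2 at 0.93 and 0.53 (0.39 ± 0.13, adjusted p = 0.145). Of 29 effector genes of neuronal activity, 7 rose in TRAP and 6 in total RNA and 2 (Btg2 and Gadd45g) were called higher in the difference (median 0.01), and 3 without TRAP LTP replicate 2, with Arl4d (0.62, adjusted p = 0.0326). The synaptic scaffold Homer1 was at 0.22 ± 0.058 (adjusted p = 0.0585) and the protocadherin Pcdh8, which rose in TRAP (log2 fold change 0.54, adjusted p = 0.00183), at 0.29 ± 0.084 (adjusted p = 0.0891). Both were under the fold threshold. Of 18 MAP kinase phosphatases and feedback inhibitors tested none was called by edgeR or limma, nor by DESeq2 among the 12 to which it gave an adjusted p, and the unadjusted p of the difference was under 0.05 for 3 above and 1 below 0. Dusp6, a phosphatase of ERK, was at -0.13 ± 0.051 (adjusted p = 0.213) and Dusp1 at 0.18 ± 0.081 (adjusted p = 0.278).

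**Figure D2:**
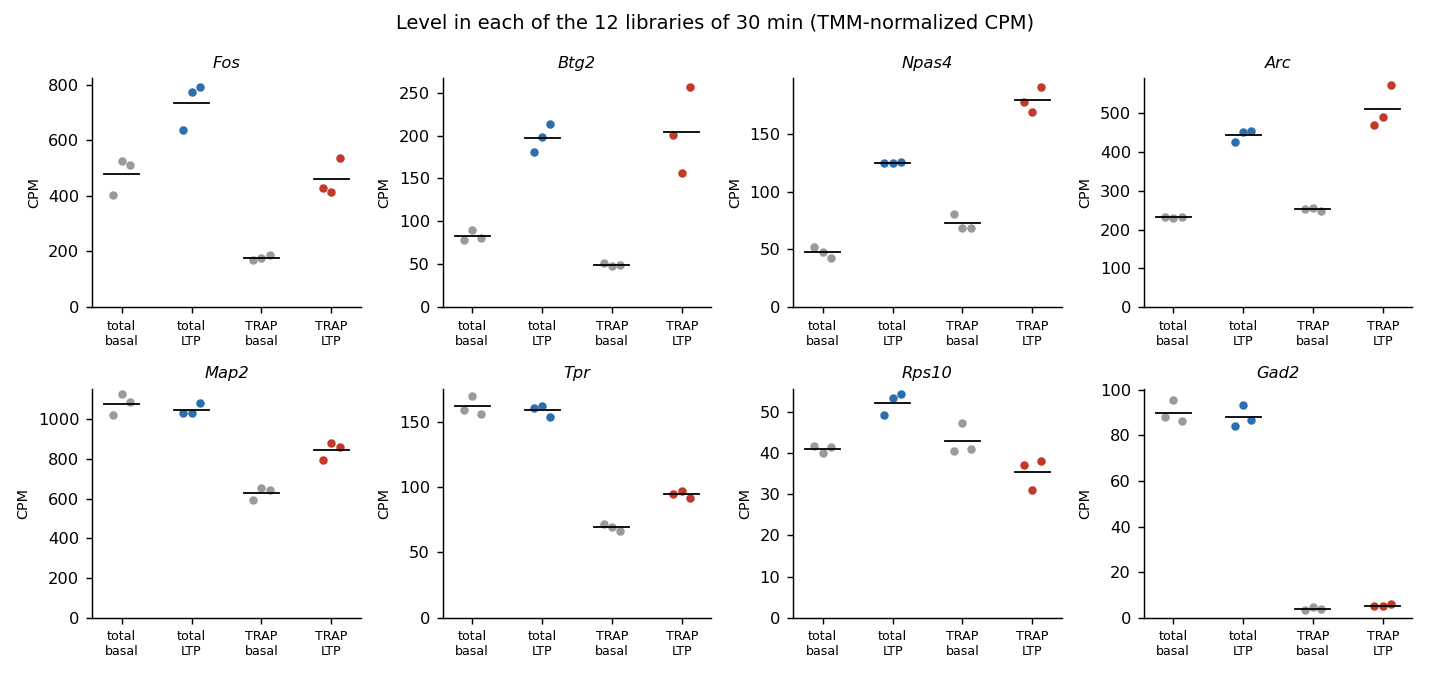
TMM-normalized CPM of 8 genes in each of the 12 libraries, with the 3 replicates of a group side by side and a bar at their mean. Fos and Btg2 rose by more in TRAP than in total RNA, Npas4 and Arc 2.47-fold and 2.02-fold in TRAP and 2.62-fold and 1.92-fold in total RNA, Map2 and Tpr were higher in TRAP LTP than in TRAP basal libraries, Rps10 was lower in TRAP LTP and higher in total RNA LTP than in the basal libraries, and Gad2 was at 3.46 to 5.97 CPM in TRAP.

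A few long transcripts of the cytoskeleton and the Golgi, and Tpr of the nuclear pore, were called higher, none of the members of their lists with the trend on length, described below, removed. Map2, the microtubule-associated protein of dendrites (chr1:66175273-66442583, mm10), was at 593, 651 and 643 CPM in TRAP basal and 795, 878 and 859 in TRAP LTP libraries. In total RNA it was at 1022, 1124 and 1085 CPM in basal and 1030, 1032 and 1082 in LTP libraries. The TRAP groups did not overlap and those of total RNA did, and the difference was 0.46 ± 0.068 (adjusted p = 0.00455). The long microtubule-associated proteins Map1b (0.39 ± 0.075, adjusted p = 0.0179) and Map1a (0.39 ± 0.083, adjusted p = 0.0273) passed the false discovery rate but stayed under the fold threshold. Of 21 microtubule-associated proteins and motors tested, 1 was called higher and none lower, 20 were above 0, and the median was 0.15.

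Tpr, a coiled-coil protein of the nuclear pore basket, had the smallest p beside Rnf11. It was at 71.9, 69.8 and 66.6 CPM in TRAP basal and 95.1, 97.3 and 91.9 in TRAP LTP libraries, and at 160, 170 and 156 against 161, 162 and 154 in total RNA, where the groups overlap (0.48 ± 0.058, adjusted p = 0.00135). The golgins, which tether vesicles at the Golgi, were close to it: Golgb1 was at 0.44 ± 0.062 (adjusted p = 0.00356) and Golga4 at 0.42 ± 0.062 (adjusted p = 0.00455). Of the 17 members of the list of golgins and large coiled-coil transcripts, all were above 0, 3 were called higher and none lower, and the median was 0.25.

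Sptb, the beta subunit of spectrin, a protein of the membrane skeleton, was at 212, 208 and 227 CPM in TRAP basal and 301, 344 and 317 in TRAP LTP libraries. In total RNA it was at 294, 319 and 327 CPM in basal and 347, 346 and 343 in LTP libraries, so that LTP was above basal in both populations (difference 0.43 ± 0.059, adjusted p = 0.00324). Tln1, which links integrins to actin, was at 0.48 ± 0.095 (adjusted p = 0.0193), Sptan1 at 0.32 ± 0.068 and Ank2 at 0.27 ± 0.059 (adjusted p = 0.0284 and 0.0295). Of 25 spectrins, ankyrins and actin cross-linkers, 24 were above 0, 2 were called higher and none lower, with a median of 0.25. Numa1, a large protein of the mitotic spindle and the nucleus, was also called (0.48 ± 0.075, adjusted p = 0.00526).

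Lists of other long neuronal transcripts lay above 0 with no call. Over all 15387 transcripts tested, 7411 were above 0, and an unadjusted p was under 0.05 for 1207 above and 1255 below 0. Of 28 voltage-gated channels, 25 were above 0 (median 0.14), led by the calcium channel Cacna1e (0.32 ± 0.056, adjusted p = 0.00911), and 13 had an unadjusted p under 0.05. Of 20 postsynaptic density scaffolds 18 were above 0 (median 0.09), and 8 had an unadjusted p under 0.05. Of 27 cadherins and protocadherins 22 were above 0 (median 0.09), 10 with an unadjusted p under 0.05. The 27 receptor subunits for glutamate and GABA were split, with 14 above 0 and a median of 0.00, though the NMDA receptor subunit Grin1 was at 0.28 ± 0.055 (adjusted p = 0.0187). DESeq2 and limma likewise called none of these 4 lists' members. Without TRAP LTP replicate 2 the medians of channels, scaffolds and cadherins were 0.09, 0.08 and 0.04, with an unadjusted p under 0.05 for 11, 5 and 5, and with the length and GC trend removed they were 0.05, 0.05 and 0.02.

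Other called transcripts belong to none of these lists. Rnf11, a RING finger protein of ubiquitin signalling (chr4:109451098-109484728, mm10), had the smallest p of all. It was at 252, 240.2 and 242 CPM in TRAP basal and 326, 316 and 325 in TRAP LTP libraries, and at 291, 261 and 263 against 270, 263 and 274 in total RNA. The TRAP groups were apart and those of total RNA overlapped (0.41 ± 0.049, adjusted p = 0.00135). Gpr137, an integral membrane protein of the lysosome, was at 77.4, 76.8 and 63.4 CPM in TRAP basal and 95.7, 99.6 and 101 in TRAP LTP libraries, and at 77.3, 77.4 and 76.2 against 70.6, 74.7 and 72.8 in total RNA (0.53 ± 0.072, adjusted p = 0.00324). Its TRAP libraries rose while its LTP libraries of total RNA were all below the basal ones. Gpr137 overlaps Bad on the other strand, and because strand was not kept in these libraries the reads of the pair cannot be told apart. The same holds for 20 of the 68 called transcripts, which overlap a gene on the opposite strand. Map2, Tpr, Sptb, Tln1, Numa1, Rps10, Psma5 and Slc32a1 are among them. The share over all transcripts tested was not counted. Fbxl19, an F-box protein that binds CpG islands, was at 0.41 ± 0.066 (adjusted p = 0.00703).

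**Figure D3:**
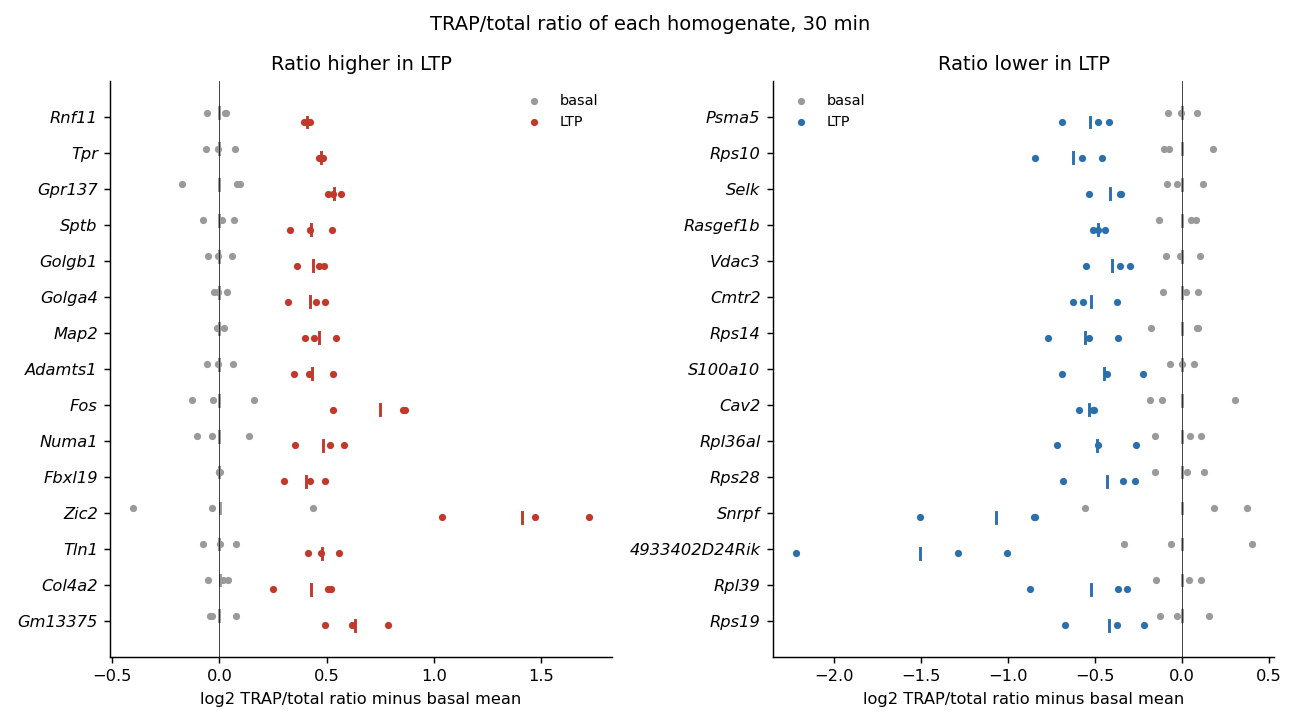
Log2 ratio of TRAP to total RNA in each homogenate, minus the mean of the 3 basal homogenates, for the 15 transcripts called higher (left) and the 15 called lower (right) with the smallest p; points are homogenates and bars are means. Basal (grey) and LTP (coloured) points do not overlap for any of the 30, which was a condition of their choice, and the LTP points of Rnf11 and Tpr lie closest together.

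Some of the higher transcripts belong to cells that the beads largely leave out. The comparison does not use the basal libraries of 60 and 120 min. In them the median TRAP/total ratio was 0.485 for the 41 higher transcripts, 0.959 for the 27 lower ones and 1.01 over all tested. Of the 41, 26 were at or below 1/1.5 of their total RNA level in TRAP, as were 4137 of all 15387 tested. A low ratio does not by itself mark another cell type. Map2, which the paper calls neuron-specific, had a mean log2 TRAP/total ratio of -0.776 in the basal libraries compared here. Gad2, an enzyme that makes GABA in interneurons, was at 3.46, 4.49 and 3.99 CPM in TRAP basal and 4.95, 4.94 and 5.97 in TRAP LTP libraries, and at 84.1 to 95.7 in total RNA. Slc32a1, the vesicular GABA transporter, was at 1.47, 2.45 and 1.52 CPM against 3.04, 3.10 and 3.31 in TRAP and at 32.9 to 39.0 in total RNA. In total RNA the basal and LTP libraries of both overlapped (differences 0.44 ± 0.12 and 0.72 ± 0.16, adjusted p = 0.0556 and 0.0327). Of the 12 interneuron markers, these 2 were called higher and none lower and 10 were above 0, with a median of 0.19. The sum of the 11 markers other than Cck overlapped between basal and LTP in TRAP, as given above. The part of interneuron RNA in these results was not tested.

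Zic2, a zinc finger transcription factor, was at 0.33, 0.55 and 0.58 CPM in TRAP basal and 1.70, 1.35 and 1.39 in TRAP LTP libraries, and at 5.75 to 8.77 in total RNA, where the groups overlapped (1.42 ± 0.27, adjusted p = 0.0148). Adamts1, a secreted metalloprotease, was at 29.4, 37.9 and 37.7 CPM against 45.4, 55.5 and 56.9 in TRAP (0.43 ± 0.065, adjusted p = 0.00526). The collagens of the basement membrane, Col4a1 (0.45 ± 0.10, adjusted p = 0.0352) and Col4a2 (0.42 ± 0.090, adjusted p = 0.0273), are neighbours on opposite strands, and were the 2 called of 26 collagens tested, of which 18 were above 0 (median 0.22). Among endothelial and mural markers the median was 0.17 with no call and 3 of 12 had an unadjusted p under 0.05, all above 0. Without TRAP LTP replicate 2 their median was -0.01, with 6 above and 6 below 0 and 0 with an unadjusted p under 0.05. Their summed TRAP level was 14.8 to 18.5 CPM in basal and 16.3 to 19.1 in LTP libraries. The 12 astrocyte, 12 oligodendrocyte and 12 microglia markers had medians of 0.03, 0.05 and -0.05 and no call, with an unadjusted p under 0.05 for 4, 0 and 1 of them. limma called none of these lists' members either, and DESeq2 none of the 10, 10 and 3 astrocyte, oligodendrocyte and microglia markers to which it gave an adjusted p (it gave none to the endothelial and mural markers). With the replicate block, the interneuron factor Dlx1 (0.82, adjusted p = 0.0924), the astrocyte factor Sox9 (0.42, adjusted p = 0.0482) and the VEGF receptor Flt1 (0.73, adjusted p = 0.0384) passed. The 10 excitatory neuron, 8 choroid plexus and ependymal and 8 meningeal fibroblast markers had medians of 0.02, 0.14 and 0.15 and no call by edgeR or limma, each with an unadjusted p under 0.05 for 1 marker. Il1b, a cytokine of microglia, was at 0.33 to 1.28 CPM in TRAP and 8.13 to 17.95 in total RNA (0.42 ± 0.23, adjusted p = 0.396). All 5 markers of dentate granule cells were above 0 with no call, among them Dsp (0.32 ± 0.075, adjusted p = 0.0352). Their median was 0.32, or 0.18 after removal of the trend, and 3 had an unadjusted p under 0.05. Without TRAP LTP replicate 2 the median was 0.37 and Dock10 was called (0.42, adjusted p = 0.00574). With all libraries of replicate 2 left out it was 0.31 and none was called. The summed TRAP level of these markers was 176 to 244 CPM in basal and 231 to 280 in LTP libraries, and 239 to 313 and 282 to 300 in total RNA. The paper states that the dentate gyrus was cut away after slicing. How much of it remained was not tested.

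Most of the lower transcripts were short. Rps10, a protein of the small ribosomal subunit (chr17:27630418-27636669, mm10), was at 40.4, 47.3 and 41.1 CPM in TRAP basal and 37.2, 30.9 and 38.1 in TRAP LTP libraries. In total RNA it was at 41.7, 40.0 and 41.5 CPM in basal and 49.1, 53.3 and 54.4 in LTP libraries. LTP lay below basal in TRAP and above it in total RNA with no overlap in either (-0.62 ± 0.099, adjusted p = 0.00793), by -0.36, -1.03 and -0.50 in the 3 replicates. Rps14 was at -0.56 ± 0.10 (adjusted p = 0.0343) and no longer passed in the fit with the replicate block (adjusted p = 0.113), and Rps28 was at -0.42 ± 0.10 (adjusted p = 0.0473). Of 75 cytosolic ribosomal protein genes tested all were below 0, 7 were called lower and none higher, 41 had an unadjusted p under 0.05, and the median was -0.21 (-0.18 in TRAP and 0.06 in total RNA). Without TRAP LTP replicate 2 alone, 65 of the 75 were below and 10 above 0 with a median of -0.14, and 3 were called lower. Without the 4 libraries of replicate 2, 73 were below 0 with a median of -0.16, and 1 was called. Ribosomal protein genes have many processed pseudogenes, and how the reads were shared between them is not given in the sources used here.

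Psma5, a subunit of the proteasome core, was at 44.2, 50.4 and 44.1 CPM in TRAP basal and 41.7, 36.3 and 41.3 in TRAP LTP libraries, and at 23.6, 25.2 and 24.7 against 29.6, 31.1 and 30.7 in total RNA, with no overlap in either (-0.53 ± 0.085, adjusted p = 0.00668). It was the 1 called of 31 proteasome subunits, of which 29 were below 0 (median -0.15), and Psma6 followed at -0.33 ± 0.068 (adjusted p = 0.0224). Of 73 nuclear-encoded subunits of oxidative phosphorylation 70 were below 0 (median -0.18) and none was called by edgeR, limma or DESeq2, with an unadjusted p under 0.05 for 34, all below 0. Without TRAP LTP replicate 2 their median was -0.09 and 60 were below 0. Ndufa9, a subunit of complex I, was at -0.36 ± 0.067 (adjusted p = 0.0138). Other lower transcripts were Selk, a selenoprotein of the endoplasmic reticulum (-0.41 ± 0.073, adjusted p = 0.0100), Vdac3, a channel of the outer mitochondrial membrane (-0.40 ± 0.080, adjusted p = 0.0193), and Rasgef1b, an exchange factor for Ras-like GTPases. Rasgef1b is longer (2987 nt) and went from 15.7 to 17.3 CPM in TRAP basal to 11.04 to 12.8 in TRAP LTP libraries, with 25.6 to 28.5 and 25.5 to 28.7 in total RNA (-0.49 ± 0.093, adjusted p = 0.0164).

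**Figure D4:**
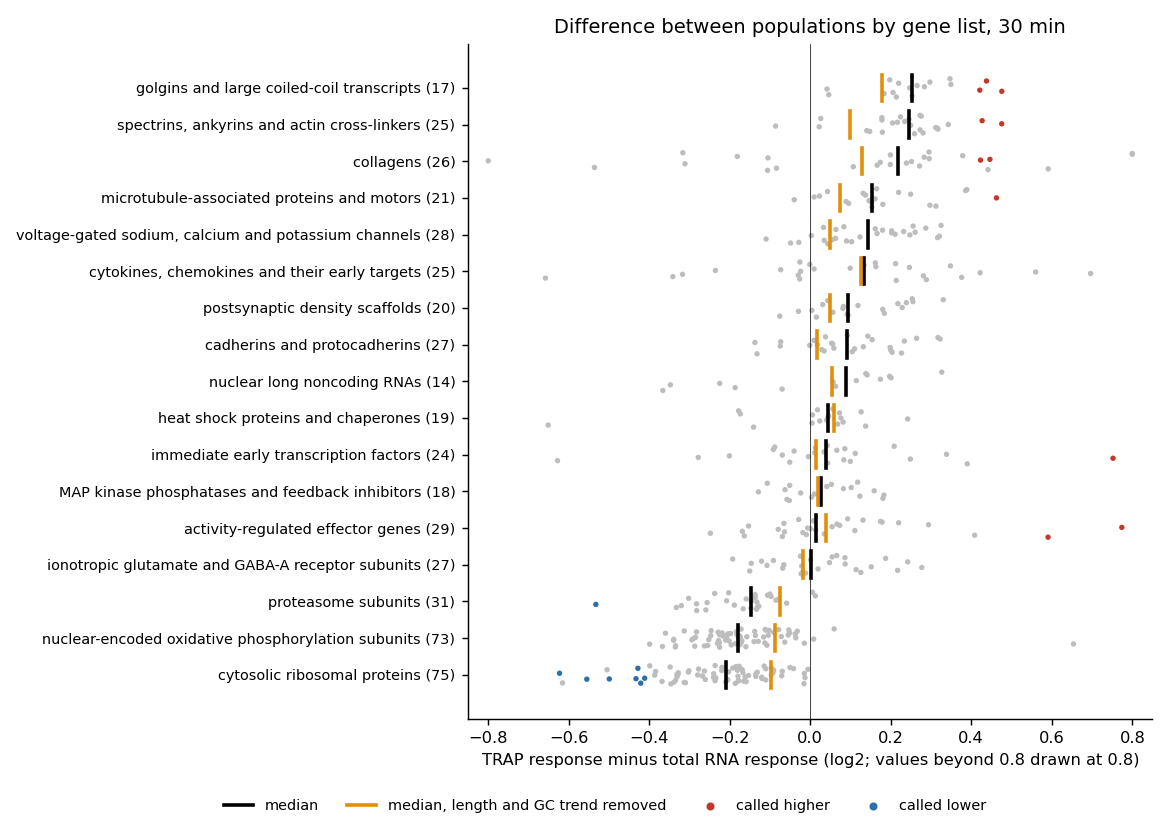
Difference between the TRAP and total RNA responses (log2, horizontal axis) of each tested member of 17 gene lists, with the number tested in parentheses, the median (black bar) and the median with the length and GC trend removed (orange bar). Ribosomal protein, oxidative phosphorylation and proteasome genes lie below 0 and golgins, spectrins and microtubule-associated proteins above it, and the orange bars of these 6 lists lie nearer to 0 than the black ones.

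The remaining lists held no call by edgeR or limma, nor by DESeq2 among the members to which it gave an adjusted p. The 19 heat shock proteins and chaperones had a median of 0.04 with an unadjusted p under 0.05 for 1 above and 2 below 0, and the 25 cytokines, chemokines and early targets had 0.13, with 2 above and 2 below 0. The 14 nuclear long noncoding RNAs had 0.09, again with 2 above and 2 below 0, among them Pvt1 at -0.35 ± 0.092 (adjusted p = 0.0585). Against these counts, an unadjusted p was under 0.05 for 1207 above and 1255 below 0 among all 15387 tested. The list of mitochondrially encoded transcripts had 0 members tested.

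The difference followed transcript length, and this bears on most of the groups above. Its median ran from -0.12 in transcripts under 1 kb to -0.07, -0.01 and 0.05 in those of 1 to 2, 2 to 4 and 4 to 8 kb and 0.12 over 8 kb. TRAP ran from -0.05 under 1 kb to 0.06 over 8 kb and total RNA from 0.07 to -0.05, so that the 2 populations had opposite trends. Spearman's rho with length over 15229 transcripts was 0.162 for the TRAP response, -0.220 for the total RNA response and 0.283 for the difference. The median length was 4726 nt for the 40 higher transcripts with a known length, 1059 nt for the 27 lower ones and 2926 nt over all. Of the 27 lower ones 22 were under 2000 nt, and 22 of the higher ones were over 4000 nt.

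The trend was not the same in the 3 replicates. For the difference, rho was 0.038, 0.337 and 0.198 in replicates 1, 2 and 3, for TRAP 0.028, 0.284 and 0.023 and for total RNA 0.010, -0.193 and -0.274. TRAP LTP replicate 2 stood apart from the other TRAP libraries, with a median deviation from the mean of the 6 TRAP libraries of 0.11 over 8 kb and -0.19 under 1 kb. The other 5 lay between -0.04 and 0.00 over 8 kb and between 0.01 and 0.06 under 1 kb. Without it rho of the difference was 0.157. Rn45s was above 2% of reads in 5 libraries, TRAP LTP replicate 2 (8.04%), TRAP basal replicate 1 (2.90%), total RNA basal replicates 2 and 3 (8.47 and 14.1%) and total RNA LTP replicate 1 (9.80%), and at or below 0.239% in the rest. Its part in the length trend was not tested.

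**Figure D5:**
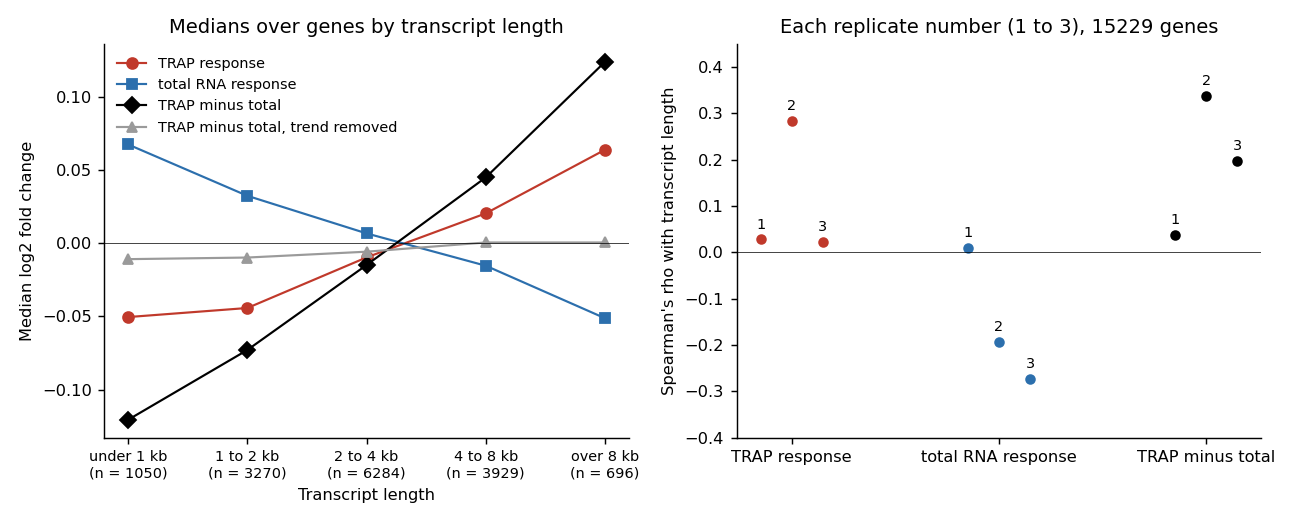
Left, median log2 value by transcript length (number of transcripts in parentheses) for the TRAP response, the total RNA response, their difference and the difference with the trend removed; right, Spearman's rho with transcript length of each replicate number. The TRAP and total RNA lines cross, the difference runs from -0.12 to 0.12, and replicate 2 has the highest rho of the difference (0.337) and replicate 1 the lowest (0.038).

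With the trend of each library on length and GC content removed, 43 transcripts were called, 29 higher (0.188% of those tested) and 14 lower (0.091%), and rho with length was 0.011. Of the 41 higher transcripts 20 were still called and of the 27 lower ones 9, and all 68, chosen for values beyond 0.4, kept their sign. The calls that remained higher included Rnf11 (0.42, adjusted p = 0.000110), Gpr137 (0.54, adjusted p = 0.000881), Fos (0.79, adjusted p = 0.00562), Gadd45g (0.65, adjusted p = 0.00268), Zic2 (1.40, adjusted p = 0.0108), Gad2 (0.41, adjusted p = 0.0840) and Slc32a1 (0.67, adjusted p = 0.0336). Those that remained lower included Rps10 (-0.56, adjusted p = 0.00224), Rps14 (-0.43, adjusted p = 0.00217), Psma5 (-0.44, adjusted p = 0.00645) and Rasgef1b (-0.48, adjusted p = 0.00937). Tpr (0.40, adjusted p = 0.00114) and Map2 (0.40, adjusted p = 0.00217) then fell just under the fold threshold, and Golga4, Golgb1 and Sptb were at 0.32, 0.29 and 0.26. Btg2 was at 0.79 and no longer passed (adjusted p = 0.164), but passed once the replicate block was added (0.78, adjusted p = 9.2e-07).

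New among the calls with the trend removed were Kcnip2, a subunit of A-type potassium channels (0.44, adjusted p = 0.00217), and Jakmip3 (0.43, adjusted p = 0.0106). Kcnip2 was at 283, 251 and 301 CPM in TRAP basal and 340, 318 and 375 in TRAP LTP libraries, which do not overlap, and at 174 to 190.4 in total RNA. Lower were Rps21 (-0.48, adjusted p = 0.0187, but 0.193 once the replicate block was added), Pex7, the receptor for one class of peroxisomal proteins (-0.42, adjusted p = 0.0263), and Prex1, a Rac exchange factor (-0.41, adjusted p = 0.00562). The removal used 1 transcript length per gene, 693 nt for Kcnip2 (0.31 before removal) and 8099 nt for Pex7 (-0.34 before removal). No other length was tried for it. The median of the 75 ribosomal protein genes moved from -0.21 to -0.10 with 3 called lower, that of the proteasome from -0.15 to -0.08 with 1, and that of oxidative phosphorylation from -0.18 to -0.09 with none. The medians moved from 0.25 to 0.18 for golgins, from 0.25 to 0.10 for spectrins, ankyrins and actin cross-linkers and from 0.15 to 0.07 for microtubule-associated proteins, each with no call left. The count with the trend removed was 20 without TRAP basal replicate 2, 21 without total RNA basal replicate 2, 88 without TRAP basal replicate 3, 87 without total RNA basal replicate 3, 27 without replicate 1 and 22 without replicate 2.

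The study asked whether neuron-enriched transcripts change more at the ribosome. With neuron-enriched defined by a basal TRAP/total ratio of at least 1.5 at 60 and 120 min, 2847 transcripts qualified. Of these, 2 were called higher and 2 lower in the difference (0.0702% each, against 0.266% and 0.175% of all tested). The absolute log2 fold change was larger in TRAP than in total RNA for 55.0% of the neuron-enriched transcripts, against 62.2% of all tested. It was larger in TRAP for 69.7% of the 4137 transcripts with a ratio at or below 1/1.5, of which 26 were called higher and 7 lower (0.628% and 0.169%). Most transcripts in these shares were not called in either population, and the part of measurement spread in the shares was not tested. By replicate the share among neuron-enriched transcripts was 51.5, 58.6 and 49.8%. The median absolute log2 fold change of the neuron-enriched transcripts was 0.08 in TRAP and 0.07 in total RNA, and 0.18 and 0.09 for those with a ratio at or below 1/1.5. Of the 5 neuron-enriched transcripts called in TRAP, 4 had the larger value in TRAP (medians 0.56 and 0.36), but these were chosen by their TRAP value, which favours TRAP. The same holds for the 45 of 50 called in TRAP over all tested.

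The libraries of 60 and 120 min, from other mice, were fitted in the same way. Of the 41 higher transcripts 29 were above 0 at 60 min (4 called) and 27 at 120 min (7 called), and of the 27 lower ones 16 were below 0 at 60 min (none called) and 22 at 120 min (1 called). None was called in the other direction at either time. Over all tested, 50.8% were above 0 at 60 min and 49.1% at 120 min. Of these, 15 were called higher and 6 lower of 15711 at 60 min, and 46 and 8 of 15464 at 120 min were called among all tested. Fos was at 1.03 ± 0.071 at 60 min and 1.04 ± 0.082 at 120 min (adjusted p = 1.1e-06 and 2.85e-07), Btg2 at 1.17 ± 0.066 and 0.70 ± 0.091, and Map2 at 0.43 ± 0.060 and 0.57 ± 0.089 (adjusted p = 0.00315 and 0.00389). These 3 were called at all 3 times. Gadd45g was called at 60 min (0.87 ± 0.084, adjusted p = 7e-05), and Golgb1, Numa1, Sptb and Tpr at 120 min (0.64, 0.54, 0.48 and 0.51). At 120 min Rn45s took 40.6 to 61.4% of reads in the TRAP basal and 0.13 to 1.58% in the TRAP LTP libraries. Without it they held 10146353 to 16753607 and 33042265 to 35267718 reads, so that library make-up and treatment cannot be told apart there. The values of both later times are without removal of the length trend.

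The lower transcripts named above had values nearer to 0 at the later times. Rps10 was at -0.04 ± 0.082 at 60 min and -0.15 ± 0.14 at 120 min and Psma5 at -0.07 ± 0.079 and 0.02 ± 0.16, none called. The 1 lower transcript called again was Hilpda, a lipid droplet protein, at 120 min (-0.97 ± 0.18, adjusted p = 0.0171). Interneuron genes had the opposite sign at 60 min without being called there: Gad2 was at -0.43 ± 0.11 (adjusted p = 0.158) and Slc32a1 at -0.90 ± 0.29 (adjusted p = 0.377). Zic2 was at -1.18 ± 0.41 at 60 min and -1.12 ± 0.49 at 120 min (adjusted p = 0.394 and 0.533). Whether the difference of a transcript changed between times was not tested.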

How the data were processed

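The authors depleted ribosomal RNA, made libraries with an Illumina TruSeq RNA v2 kit that keeps no strand, sequenced the 30 min libraries single-end, mapped reads to mm10 with STAR and deposited raw counts per gene (versions of STAR and edgeR not given in the sources used here). The same tables hold the authors' normalized signals, log2 fold changes and FDR values, which were not used. In 27 of 24060 genes the symbol had become a date; 25 were recovered by Entrez ID and 2 left out. Rn45s was dropped.

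The deposited counts of the 12 libraries were tested in R 4.3.3 by the robust quasi-likelihood fit of edgeR 4.0.16, after filterByExpr and TMM scaling, with 6 homogenates as block, population, and population by treatment. Adjusted p are Benjamini-Hochberg values over the 15387 genes. Responses within a population used its 6 libraries, with the same genes and factors. Transcript lengths came from GENCODE M21 (GRCm38); 98.97% of genes tested had one. The trend of each library on length and GC content, fitted over genes with a mean count of at least 50, entered the offsets. Ratios per homogenate used counts plus 0.5, scaled to CPM. Libraries of one homogenate deviated together (own correlation 0.163 to 0.669, any other at most 0.352), as did LTP and basal libraries of the same mice (0.405 to 0.661 against at most 0.201). The test was tried on simulated data.

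Genes were named by rule: up to 15 in each direction by p among those with separate ratios, 10 with the trend removed, 4 per list, 8 per population response, markers, and 7 that the study discusses. Prex1 and Hilpda were chosen after their values were seen. The members and lists were chosen with earlier results of these data known. Alternatives were blocks, scalings, filters, thinning, DESeq2 1.42.0, limma 3.58.1 and leaving out libraries. pandas 2.3.3 and matplotlib 3.10.9 on Python 3.11.15 made tables and figures.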

Additional observations from a re-analysis of the deposited data

Results flagged for a closer look

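Each result here was picked out because the response of a transcript to LTP differed between TRAP and total RNA by the test of the difference itself. There were 68 such transcripts, and 43 with the length and GC trend removed. Of the 30 with the smallest p and separate homogenate ratios, 13 kept their call with the trend removed, 18 without TRAP LTP replicate 2 and 10 without the 4 libraries of replicate 2, and all 30 kept their sign in each of these. Separate ratios and the fold threshold were conditions of their choice, so that their signs could hardly turn. Only Gpr137 and Rps10 passed both thresholds under all 29 alternatives run for single genes. The causes of these differences were not tested.

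The higher ones, as log2 differences, were Rnf11 at 0.41, Tpr at 0.48, Gpr137 at 0.53, Sptb at 0.43 and Golgb1 at 0.44. Golga4 was at 0.42, Map2 at 0.46, Adamts1 at 0.43, Fos at 0.75 and Numa1 at 0.48. Fbxl19 was at 0.41, Zic2 at 1.42, Tln1 at 0.48, Col4a2 at 0.42 and the predicted gene Gm13375 at 0.62.

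The lower ones were Psma5 at -0.53, Rps10 at -0.62, Selk at -0.41, Rasgef1b at -0.49 and Vdac3 at -0.40. Cmtr2, a methyltransferase of the mRNA cap, was at -0.53, Rps14 at -0.56, S100a10 at -0.44, the caveolin Cav2 at -0.55 and Rpl36al at -0.48. Rps28 was at -0.42, the spliceosome protein Snrpf at -1.03, 4933402D24Rik at -1.59, Rpl39 at -0.50 and Rps19 at -0.41.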

How the results depend on the processing

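The 68 calls of a difference became 10 with no block at all (neither homogenate nor replicate number), 111 with a replicate block within each population beside the homogenate, 43 with the trend removed, 103 with the trend removed and that replicate block, 5 with the trend removed and no block at all, 28 by DESeq2 (which gave an adjusted p for 6438 of 15387 genes and none for 42 of the 68) and 637 by the false discovery rate alone. The 43 calls with the trend removed became 103 with the replicate block added and 5 with the homogenate block dropped. Leaving out single libraries or replicate numbers gave 17 to 146 calls, 20 to 88 with the trend removed, 23 to 81 in TRAP and 14 to 37 in total RNA. The replicate block gave 231 calls in TRAP and 66 in total RNA. Thinning all libraries to the smallest gave 63 calls, of which 39 were among the 68.

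Signs turned in genes that were not called. Junb ran from -0.12 to 0.0485 when libraries or replicates were left out (0.01 without TRAP LTP replicate 2 and 0.02 without total RNA LTP replicate 2), Gm13889 from -0.22 to 0.0842 (0.04 in both of these), Kcnj2 from -0.0746 to 0.0296 and Arc from -0.0041 to 0.13. The median of the glutamate and GABA receptor subunits went from 0.00 to -0.019 with the trend removed. Of 857 values of the 30 transcripts above, 236 no longer passed. None turned sign, which their choice by separate ratios and the fold threshold largely fixed in advance. There were 3 homogenates per treatment, and fewer reads in TRAP LTP than in TRAP basal libraries. Differences near the thresholds depend on single libraries, and the part of read depth in this was not tested.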
